A study of Homo sapiens with 16 samples.

Results

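The ut pair of AbC G4-ChIP compared peaks of HEK293T cells that carried a non-targeting shRNA (CTut) with peaks of HEK293T cells that carried an shRNA against CGGBP1 (KDut). All peaks of both lists were taken, 6423 regions out of 40118 in the 9 peak lists of the series. A peak was called shared if it overlapped a peak of the other list by at least 1 bp, and CT only or KD only if it did not. CTut held 3496 peaks over 12215350 bp and KDut held 2927 peaks over 11308888 bp. HEK293T is a human embryonic kidney line, and both shRNAs were delivered by lentivirus into stable lines. In AbC G4-ChIP, fixed and permeabilized cells are incubated with the 1H6 antibody before lysis and sonication. In both ut samples the cells were not transfected. Instead, by the labels, 500 ng of a plasmid with a G4-forming insert and 500 ng of a carrier plasmid without one were folded in 150 mM KCl, bound to 1H6, crosslinked and added to each lysate. The study's methods give a larger amount of both plasmids for this step. Each list came from 1 MinION library, pooled from 4 replicates and called against an input of its own, so that a difference between the lists has no replicate check. The peak lists hold no measure of CGGBP1, and the depletion could not be checked from them.

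A G-quadruplex (G4) is a DNA structure in which runs of guanines stack as tetrads held together by potassium. The canonical signature of such a sequence is 4 runs of GGG with loops of 1 to 7 bases, and 1H6 is an antibody raised against G4 DNA. CGGBP1 binds GC-rich triplet repeats and has been studied as a regulator of repetitive DNA. Much of the DNA in both lists was tandem repeat. Alpha-satellite is the 171-bp repeat of human centromeres, and repeats of the pentamer ATTCC lie beside the centromeres of several chromosomes.

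The signatures below were those of the peaks with the highest fold in each class, and they are shown because they are the sequences the assay is named for. Capitals mark runs of 3 or more G. Coordinates are hg38.
CT only, minus strand, chr4:190077439-190077466: GGGGGagaGGGGGGaGGGGGGaGGGGGG
CT only, minus strand, chr17:22388637-22388674: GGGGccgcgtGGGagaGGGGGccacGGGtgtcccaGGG
Shared, minus strand, chr21:8209474-8209506: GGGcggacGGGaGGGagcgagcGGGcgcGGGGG
Shared, minus strand, chr1:633421-633464: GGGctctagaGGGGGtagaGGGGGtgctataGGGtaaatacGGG
KD only, plus strand, chr7:905817-905875: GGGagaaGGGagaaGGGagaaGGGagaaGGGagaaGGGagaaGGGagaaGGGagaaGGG
KD only, plus strand, chr22:18855040-18855059: GGGacGGGGGtGGGGtGGGG
The peaks around these signatures had folds over input of 6.90 and 5.20 (CT only), 13.3 in CTut and 20.3 in KDut (shared) and 5.95 and 4.39 (KD only). The CT only signature on chromosome 4 lay at DUX4L5, a pseudogene copy in the subtelomeric D4Z4 repeat. The first KD only signature repeated GGGAGAA at the ADAP1 and COX19 genes on chromosome 7. The shared signature on chromosome 1 lay in a block of mitochondrial pseudogenes.

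Most peaks held no such signature, and the centres of the leading peaks are shown for contrast. Capitals mark runs of 3 or more G or C.
CT only, 171-bp repeat, plus strand, chr9:43492054-43492253: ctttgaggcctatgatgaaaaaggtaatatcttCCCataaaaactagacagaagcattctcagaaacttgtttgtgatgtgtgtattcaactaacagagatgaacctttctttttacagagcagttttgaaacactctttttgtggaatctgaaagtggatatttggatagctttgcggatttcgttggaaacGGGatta
Shared, pentamer repeat, plus strand, chr16:46400913-46401112: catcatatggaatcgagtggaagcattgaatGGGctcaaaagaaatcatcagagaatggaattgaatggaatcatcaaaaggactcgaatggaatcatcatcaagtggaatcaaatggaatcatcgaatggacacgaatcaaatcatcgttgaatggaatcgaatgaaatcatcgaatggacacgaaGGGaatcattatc
KD only, highest fold, plus strand, chr5:49600093-49600292: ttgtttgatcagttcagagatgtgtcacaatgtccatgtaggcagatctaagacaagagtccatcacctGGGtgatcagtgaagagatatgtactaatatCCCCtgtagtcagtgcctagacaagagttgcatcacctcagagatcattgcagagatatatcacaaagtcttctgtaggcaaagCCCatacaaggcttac
KD only, chromosome 13 stretch, plus strand, chr13:63093743-63093942: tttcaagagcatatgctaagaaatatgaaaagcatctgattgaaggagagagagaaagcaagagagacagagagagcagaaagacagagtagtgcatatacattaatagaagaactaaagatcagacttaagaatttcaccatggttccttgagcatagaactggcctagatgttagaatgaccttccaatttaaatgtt
KD only, chromosome 18 stretch, plus strand, chr18:31646223-31646422: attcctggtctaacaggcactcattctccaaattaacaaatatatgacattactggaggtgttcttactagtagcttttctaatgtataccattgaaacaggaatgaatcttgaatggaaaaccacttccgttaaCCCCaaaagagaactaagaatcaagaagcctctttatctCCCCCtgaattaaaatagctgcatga
The CT only centre was alpha-satellite-like sequence of chromosome 9 (fold 8.55) and the shared centre was a pentamer repeat of chromosome 16 (fold 26.8 in CTut). The KD only centre of chromosome 5 (fold 11.6) belonged to neither repeat. The last 2 centres, of KD only peaks in stretches of chromosomes 13 and 18, had GC contents of 36.0% and 36.5%, few or no runs of G or C, and neither of the 2 repeats. Other kinds of repeat were not looked for.

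Of the CTut peaks, 1577 were CT only, which is 45.1% of the list (95% exact interval 43.4 to 46.8). Of the KDut peaks, 1094 were KD only, or 37.4% (35.6 to 39.2). These intervals and those that follow cover counting error over peaks only, and neighbouring peaks are not independent. The remaining 1919 CTut and 1833 KDut peaks formed 1579 shared regions. The lists had 6701247 bp in common, which was 54.9% of the CTut bases, 59.3% of the KDut bases and 39.8% of their union. A shared peak was covered by at least 88 bp in CTut and 39 bp in KDut. The nearest CT only peak lay 18 bp from a KDut peak, and 1 KD only peak touched a CTut peak without sharing a base. Few class calls were that close. Only 47 CT only peaks (2.98%) and 44 KD only peaks (4.02%) had a peak of the other list within 1 kb.

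The unshared peaks of the 2 lists differed in strength. CT only peaks had a median fold of 3.82 (quartiles 3.36 to 4.60) and a median −log10 q of 5.01. KD only peaks had a median fold of 3.40 (3.29 to 3.58) and a median −log10 q of 2.77. Of the KD only peaks, 710 (64.9%) had a fold under 3.5, where the lowest fold in the KDut list was 3.19. A −log10 q of 4 or more was reached by 979 CT only peaks (62.1%) and by 98 KD only peaks (8.96%). Outside tandem repeats the difference in fold was gone, with medians of 3.36 for CT only and 3.39 for KD only peaks. Both lay near the lowest folds of their lists, 3.08 in CTut and 3.19 in KDut. The median −log10 q there still differed, at 3.36 for CT only and 2.76 for KD only peaks. Shared peaks were stronger, with median folds of 4.43 in CTut and 4.13 in KDut. Of the 253 KDut peaks with a fold of 7 or more, 2 were KD only, and of the 437 such CTut peaks 14 were CT only. Unshared peaks were also short. The median length was 1372 bp for CT only and 1641.5 bp for KD only peaks, against 2916 bp for the shared CTut and 2066 bp for the shared KDut peaks. Outside repeats the CT only and KD only medians were 1658.5 and 1660.5 bp. Of the peaks of 6000 bp or more, 37 of 428 in CTut and 12 of 418 in KDut were unshared. The median distance to the other list was 19001 bp for CT only and 81478.5 bp for KD only peaks.

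The classes differed by chromosome. Chromosome 13 makes up 3.37% of the known bases of the genome used here. It held 179 CT only peaks (11.4%), 633 shared CTut peaks (33.0%), 467 shared KDut peaks (25.5%) and 619 KD only peaks (56.6%). Chromosome 1 followed with 163 KD only peaks and chromosome 18 with 136. These 3 chromosomes were the ones on which KDut had more peaks than CTut. On the other chromosomes KD only peaks were fewer, from 1 on chromosomes 8, 11 and 14 to 27 on chromosome 5. Their share of the KDut peaks varied. It was 16 of 28 (57.1%) on chromosome 15, like the 57.0% of chromosome 13, and 19 of 48 (39.6%) on chromosome 7. On chromosome 20, 3 KD only peaks stood against 100 CT only peaks. On chromosome 22 the numbers were 7 and 104, and on chromosome X they were 5 and 91. CT only peaks lay on all 23 chromosomes analysed, with 12 on chromosome 11 as the lowest number and 179 on chromosome 13 as the highest.

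**Figure D1:**
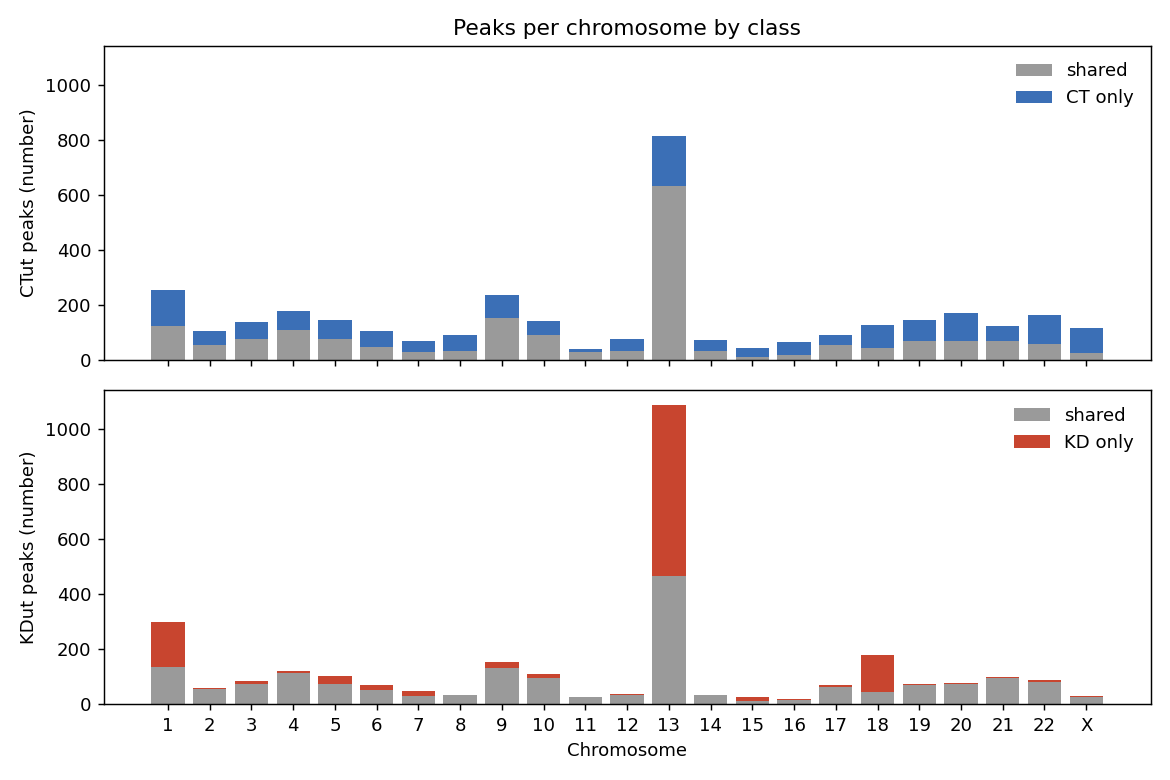
Number of CTut peaks (top) and KDut peaks (bottom) on each chromosome, with shared peaks in grey and unshared peaks in colour. KD only peaks were concentrated on chromosomes 13 (619), 1 (163) and 18 (136), while CT only peaks were spread over all chromosomes.

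Tandem repeats separated the classes in the opposite way. Among shifts of 100 to 250 bp, peak bases matched best at 171 bp, the length of an alpha-satellite unit. A peak was taken as a 171-bp repeat if more than 40% of its bases equalled the base 171 bp further on, and as a pentamer repeat if more than 10% of its bases lay in ATTCC units. Of the CT only peaks, 923 (58.5%, interval 56.1 to 61.0) were such repeats. Of the KD only peaks, 24 (2.19%, 1.41 to 3.25) were. Shared peaks lay between, with 875 (45.6%) in CTut and 900 (49.1%) in KDut. Read by list, 881 of the 1665 CTut peaks with a 171-bp repeat were CT only, or 52.9% against 45.1% of all CTut peaks. Of the 819 KDut peaks with a 171-bp repeat, 21 were KD only, or 2.56% against 37.4% of all KDut peaks. For the pentamer repeat, 42 of 133 CTut and 3 of 105 KDut peaks were unshared. Almost every repeat peak of KDut thus had a CTut partner, while CTut had many without a KDut partner. The KDut list held 924 repeat peaks in all and the CTut list 1798. Of the 2484 peaks of both lists with the 171-bp match, 14 had a GC content over 50%, and the purine-rich ADAP1 peak was also counted, so that the match alone does not make a peak alpha-satellite. With a limit of 50% on the match, the repeat share was 34.6% of CT only and 1.10% of KD only peaks.

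The leading CT only peaks were repeats of this kind. The 3 highest folds were 8.55 at chr9:43491544-43492763, 7.47 at chr8:44066128-44067312 and 7.43 at chr19:26534895-26536202. All 3 were intergenic, had GC contents between 37.1% and 39.2%, and lay 3048, 63210 and 23158 bp from the nearest KDut peak. The longest CT only peaks were all on chromosome 22, at 14452, 12724 and 12414 bp, with folds of 3.42, 3.61 and 3.90. The first of them was a 171-bp repeat. CT only peaks outside repeats numbered 654, with a median fold of 3.36. The authors kept uniquely aligned reads, and how many reads of repeats were lost by this was not tested.

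KD only peaks lay mainly in 3 stretches. These were found in these data, as runs of 5-Mb windows with more than 12 KD only peaks each, so that their excess is a description. They were 220 to 245 Mb of chromosome 1, 60 to 95 Mb of chromosome 13 and 30 to 40 Mb of chromosome 18. Windows just below that limit were 45 to 50 Mb of chromosome 10 and 100 to 105 Mb of chromosome 7, each with 11 KD only peaks. The weakest window inside, 240 to 245 Mb of chromosome 1, had 13. The 3 stretches held 874 of the 1094 KD only peaks (79.9%) and 205 of the 1577 CT only peaks (13.0%). They make up 0.855%, 1.20% and 0.343% of the genome.

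In the chromosome 18 stretch there were 19 CTut peaks and 130 KDut peaks, of which 128 were KD only. CTut peaks covered 30287 bp of it and KDut peaks 243203 bp. In the chromosome 1 stretch there were 37 CTut and 135 KDut peaks, of which 127 were KD only. Chromosome 13 was different, because CTut was already dense there, with 780 peaks against 1073 in KDut. Its covered share went from 11.3% of the stretch in CTut to 18.2% in KDut. From 60 to 70 Mb both lists were dense, with 642 CTut and 553 KDut peaks, and 134 of the latter were KD only. From 70 to 95 Mb there were 138 CTut and 520 KDut peaks, and 485 of the latter were KD only. The KD only peaks in the stretches were weak and evenly so, with median folds of 3.34, 3.40 and 3.38 on chromosomes 1, 13 and 18 and highest folds of 4.29, 4.42 and 4.25. The leading peaks on chromosomes 1 and 18 lay in introns of EGLN1, an oxygen-sensing hydroxylase, and of B4GALT6, a lactosylceramide synthase, and overlapped none of the other 7 lists. The same was true of 70.8% of all KD only peaks. The median gap between neighbouring KD only peaks was 71.1 kb, 26.7 kb and 28.1 kb.

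**Figure D2:**
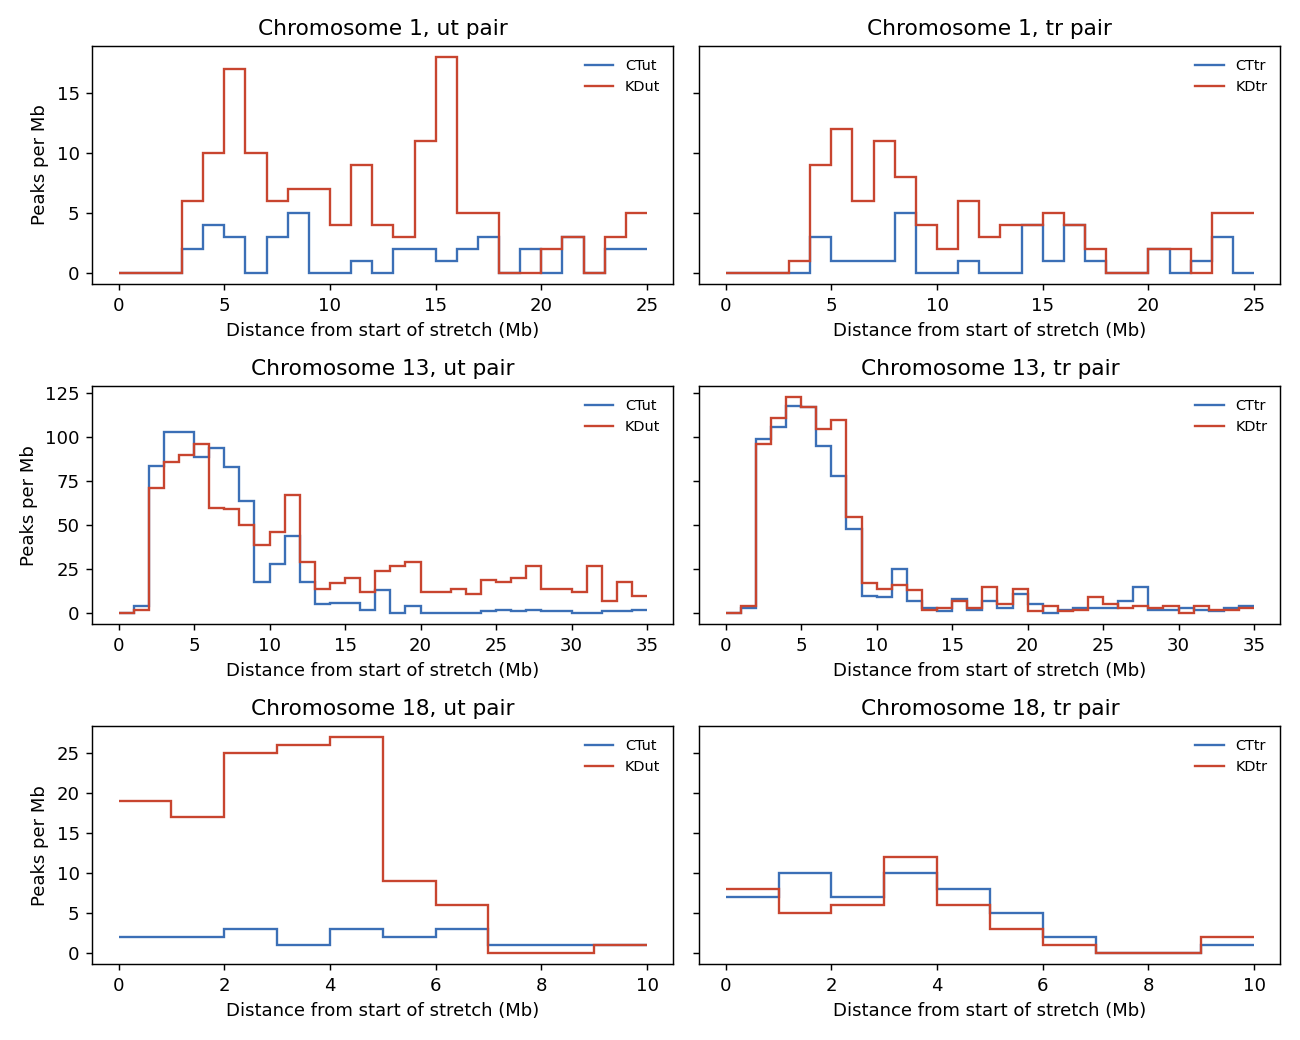
Peaks per Mb along the 3 stretches, by distance from the start of each, for the ut pair (left) and the tr pair (right) with CT in blue and KD in red. KDut lay above CTut over most of the chromosome 1 and 18 stretches and over the distal part of the chromosome 13 stretch, while the tr pair ran close together on chromosomes 13 and 18. The stretches were chosen by KD only peaks of the ut pair.

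The other pairs of the series gave other values in the same stretches. The tr pair, in which the plasmids were transfected, had 28 CTtr and 95 KDtr peaks on chromosome 1, 805 and 877 on chromosome 13 and 50 and 43 on chromosome 18. The nuc pair, sequenced on an Ion Torrent S5 with 1 pooled input, had 31 CTnuc and 249 KDnuc, 743 and 1606, and 3 and 236. KD had more peaks than CT in all 3 pairs on chromosomes 1 and 13, and on chromosome 18 in the ut and nuc pairs but not in the tr pair. The lists differ in size, however, and as a share of its list the chromosome 13 stretch went from 22.3% in CTut to 36.7% in KDut, against 34.0% and 36.7% in CTtr and KDtr and 19.6% and 20.7% in CTnuc and KDnuc. The shares for chromosome 1 were 1.06% and 4.61% in the ut, 1.18% and 3.98% in the tr and 0.817% and 3.21% in the nuc pair. For chromosome 18 they were 0.543% and 4.44%, 2.11% and 1.80%, and 0.0790% and 3.04%. From 70 to 95 Mb of chromosome 13, CTtr had 131 and KDtr 139 peaks, a difference far smaller than that of 138 to 520 in the ut pair. The stretches were chosen for KD only peaks of the ut pair, which widens the ut difference in all of these comparisons. Of the 874 KD only peaks in the stretches, 101 overlapped a CTtr peak, 85 a KDtr peak and 76 a KDnuc peak, and 654 (74.8%, 71.8 to 77.7) overlapped none of the other 7 lists. Over all KD only peaks this share was 70.8% (68.0 to 73.5), and the intervals overlap.

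KD only peaks in the stretches were poorer in GC and in guanine runs than the stretches as a whole. The GC contents of the stretches were 41.8%, 35.7% and 38.6% on chromosomes 1, 13 and 18, and they held 27.2, 17.3 and 22.1 GGG or CCC triplets per kb. KD only peaks in them had median GC contents of 39.6%, 33.7% and 35.3% and 23.4, 14.0 and 15.3 triplets per kb. CpG followed, at 8.42, 4.61 and 5.08 per kb in the peaks against 10.7, 6.16 and 7.24 in the stretches. These set a median over peaks against the mean of a whole stretch. The trait was not particular to KD only peaks. Over the 3 stretches together, median GC contents were 34.6% in KD only, 35.2% in CT only, 33.5% in shared CTut and 33.8% in shared KDut peaks. Triplets were 15.0, 15.5, 13.5 and 14.1 per kb in the same order. Of the 874 peaks, 65 (7.44%) held a canonical signature.

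Over all KD only peaks the median GC content was 35.4% (quartiles 32.3 to 39.3), lower than the 38.7% (37.1 to 39.6) of CT only peaks and the 38.4% of shared KDut peaks. GGG and CCC triplets ran the other way, at 15.6 per kb (10.9 to 21.8) in KD only against 11.2 (7.36 to 15.9) in CT only peaks. Outside repeats, the GC content was 35.2% in KD only and 37.5% in CT only peaks, and triplets were 15.8 and 17.6 per kb, so that the order of the triplets turned. Outside both repeats and stretches, the GC content was 40.4% in KD only and 38.6% in CT only peaks. Triplets were 22.5 and 18.8 per kb there, so that KD only peaks were higher on both measures. The quartiles overlapped in each case. CGG or CCG triplets, the sequences CGGBP1 was named for, reached a density of 1 per 100 bases in 76 KD only (6.95%, 5.51 to 8.62), 73 CT only (4.63%, 3.65 to 5.79) and 154 shared KDut peaks (8.40%, 7.17 to 9.77).

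**Figure D3:**
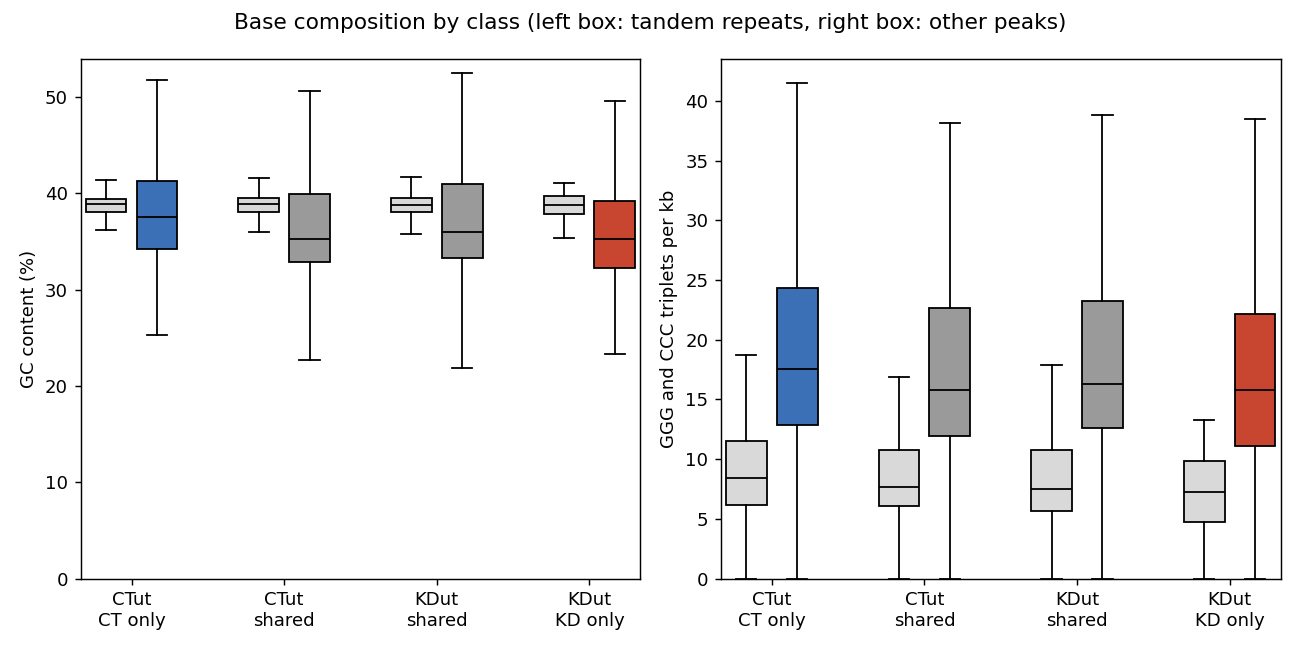
GC content in percent (left) and GGG plus CCC triplets per kb (right) of the peaks in each class, with tandem repeats in the left box of each pair and all other peaks in the right box. Boxes give median and quartiles and whiskers reach to the last value within 1.5 interquartile ranges. Outside repeats, medians lay between 35.2% and 37.5% GC and between 15.8 and 17.6 triplets per kb.

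Over whole peaks the canonical signature was most frequent in shared peaks. It was found in 68 CT only (4.31%, 3.36 to 5.43), 241 shared CTut (12.6%, 11.1 to 14.1), 253 shared KDut (13.8%, 12.3 to 15.5) and 89 KD only peaks (8.14%, 6.58 to 9.92). Read by list, 22.0% (17.5 to 27.0) of the CTut peaks with a signature were CT only against 45.1% of all, and 26.0% (21.5 to 31.0) of the KDut peaks with one were KD only against 37.4% of all. Shared peaks were also longer. In the central 1000 bp of each peak the shares were 2.22%, 3.34%, 2.62% and 5.58% in the same order, and KD only peaks were then highest. Tandem repeats were 58.5%, 45.6%, 49.1% and 2.19% of these classes, and the central shares were not split by repeats. Without tandem repeats the full-length shares were 10.1%, 22.1%, 26.4% and 8.22%, with KD only peaks lowest. Outside repeats and stretches the full-length shares were 10.9% of CT only, 33.1% and 27.9% of shared and 11.7% of KD only peaks.

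Counted over whole classes, KD only peaks lay in genes more often than the others. With protein-coding genes of GENCODE v44, 224 KD only peaks (20.5%) were intronic, against 76 CT only (4.82%), 123 shared CTut (6.41%) and 91 shared KDut peaks (4.96%). A further 58 (5.30%, 4.05 to 6.80) lay within 1 kb of a start site, against 27 (1.71%), 26 (1.35%) and 24 (1.31%). Tandem repeats were 58.5% of CT only and 2.19% of KD only peaks. Outside them, 11.5% (9.13 to 14.2) of CT only peaks were intronic and 3.98% (2.61 to 5.77) lay at start sites. The latter interval overlaps that of all KD only peaks. With genes of all types, 43.6% (40.6 to 46.7) of KD only and 49.1% (45.2 to 53.0) of CT only peaks outside repeats were intergenic. Promoters depended on the genes counted. With genes of all types the shares were 9.32% of KD only, 5.71% of CT only, 7.92% of shared CTut and 8.07% of shared KDut peaks, and without tandem repeats the order turned, at 9.35% (7.67 to 11.3), 13.6% (11.1 to 16.5), 14.3% and 15.6%. With protein-coding genes, read by list, 71.1% of intronic and 70.7% of promoter KDut peaks were KD only, against 29.7% of intergenic ones. This order, of protein-coding genes, held outside repeats and stretches, at 58.6% (46.2 to 70.2), 52.4% (36.4 to 68.0) and 21.5%. KD only peaks overlapped 176 of 19970 protein-coding genes and CT only peaks 99, and 31 genes had both. In the stretches of chromosomes 1, 13 and 18, KD only peaks overlapped 48 of 153, 25 of 43 and 21 of 37 protein-coding genes, where CTut peaks of any class overlapped 13, 14 and 7.

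The genes with most KD only peaks were long genes of these stretches. DACH1, a transcription factor of eye and limb development, had 24 CTut and 35 KDut peaks in its 429 kb, 23 of them KD only and 13 of the former CT only. GPC6 and GPC5, neighbouring glypican genes that encode heparan sulfate proteoglycans of the cell surface, each had 1 CTut and 18 KDut peaks. KD only peaks made up 18 of those in GPC6 and 17 in GPC5. DTNA, which encodes the dystrobrevin of the dystrophin complex, had 1 CTut and 14 KDut peaks. KLHL1, a kelch-like actin-binding protein, had 10 CTut and 16 KDut peaks. The tr pair had 4 CTtr and 2 KDtr peaks in GPC6, 2 and 3 in GPC5, 2 and 4 in DTNA, 3 and 6 in KLHL1, and 11 and 10 in DACH1. KDnuc had 18 in GPC6, 15 in GPC5 and 14 in DTNA, and CTnuc had 0 in each. In DACH1 the nuc pair had 9 CTnuc and 21 KDnuc peaks and in KLHL1 1 and 17. Among the other genes with at least 3 KD only peaks, CCDC178 had 12 and ENAH, a regulator of actin, had 7, and both had no CTut peak.

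CT only peaks were most frequent in DACH1 (13), KLHL1 (8), KLF12 (5), TARS3 (5) and POTEH (4). KLF12 is a zinc-finger repressor and TARS3 a threonyl-tRNA synthetase. Of these 5, only POTEH, a primate-specific gene family member near the chromosome 22 centromere, had no KDut peak. The genes with most shared peaks were PCDH9, a protocadherin of the chromosome 13 stretch, with 77 shared CTut and 43 shared KDut peaks in 928 kb, and TLE4, a transcriptional corepressor on chromosome 9, with 17 and 11. PCDH9 had 2 CT only and 0 KD only peaks. CCDC200 had 5 shared peaks in each list, NBPF1 had 4 and 4, and ZNF717 4 and 5, with 0 KD only peaks in each.

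At promoters, KD only peaks with high folds included those of ADAP1 (5.95), LGR6 (4.63), TAF11L9 (4.58) and SPDYE2 (4.26). ADAP1 encodes a GTPase-activating protein of ARF6 and LGR6 a receptor for R-spondins. The ADAP1 and LGR6 peaks were short, at 964 and 872 bp, and each overlapped a CTtr peak. Next came EXO1, a DNA repair exonuclease (4.00), GOLGA6A (3.99), RASA4, a Ras GTPase-activating protein (3.86), TAF11L10 (3.81) and NDFIP2, an adaptor of ubiquitin ligases (3.75). EXO1 and NDFIP2 lay in the stretches, and neither peak overlapped any of the other 7 lists, like 70.8% of all KD only peaks. Of the 58 KD only promoter peaks, 34 lay in the stretches and 11 held a canonical signature. Of all 1094 KD only peaks, 874 (79.9%) lay in the stretches, a larger share than at promoters. A signature was held by 89 of them (8.14%), a smaller share than at promoters.

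The CT only promoter peaks with the highest folds were those of USP17L11 (5.77), USP17L22 (5.17), SLC22A2 (4.43), FAM90A23 (4.22) and USP17L15 (4.01). USP17L genes are near-identical tandem copies of a deubiquitinase gene on chromosome 4, and reads of one copy may be placed on another. SLC22A2 encodes an organic cation transporter of the kidney. TAF11L7 (4.01), ANKRD36C (3.94), AMY1C, a salivary amylase gene (3.78), TM2D3 (3.77) and ZNF595 (3.77) followed. Promoters shared by both lists included MUC3A, a mucin gene, with folds of 9.90 in CTut and 10.9 in KDut. The folds were 8.26 and 8.68 at TEX19, a germ cell gene, and 8.19 and 7.88 at DUX4, a homeobox factor of the early embryo. They were 7.31 and 6.98 at GPI, a glycolytic isomerase, and 4.46 and 5.61 at HBB, the beta-globin gene. At the shared promoters of USP17L23 they were 8.74 and 5.83, at USP17L24 7.22 and 6.11, and at GAGE13, a cancer-testis antigen, 6.06 and 4.59.

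No gene of the lists checked for their link to G4s or CGGBP1 had a peak in either list. These were CGGBP1 and CTCF, 9 helicases that unwind G4s (such as BLM, WRN and DHX36), 12 genes with known promoter G4s (such as MYC and KIT), 12 genes of CGG-repeat fragile sites (such as FMR1 and AFF2) and 14 genes of long common fragile sites (such as FHIT and WWOX). All 49 were found in the annotation, and 0 had a CTut or KDut peak in the gene body or within 1 kb of a start site. Over all 19970 protein-coding genes, KD only peaks overlapped 0.881% and CT only peaks 0.496%, so that 0 of 49 is not particular to these lists. The nearest peak to CGGBP1 lay 2.02 Mb away in both lists.

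The strongest KD only peaks were not part of this pattern. The highest fold was 11.6 at chr5:49599176-49601209, a peak of 2034 bp with a −log10 q of 40.7 and a GC content of 45.0%, 10486 bp from the nearest CTut peak. It overlapped a peak in each of the other 7 lists, CTtr and CTnuc among them. The second was a pentamer repeat at chr16:46391932-46393955 with a fold of 8.05, and the third the ADAP1 peak. The longest KD only peaks were 14930 bp and 9582 bp on chromosome 13 and 13217 bp on chromosome 9, with folds of 3.55, 3.64 and 3.48. They lay 629, 3986 and 1260 bp from a CTut peak and overlapped CTtr, KDtr, CTnuc and KDnuc peaks.

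In the shared regions the fold was slightly lower in KDut. The median ratio of KDut to CTut fold over 1579 regions was 0.933 (quartiles 0.785 to 1.06), and 596 regions (37.7%, 35.3 to 40.2) were above 1. The ratio differed between sequence groups. In 781 regions with the 171-bp repeat it was 0.804 (0.707 to 0.922), with median folds of 6.38 in CTut and 5.01 in KDut, and 115 were above 1. In 78 pentamer repeat regions it was 0.965 (0.842 to 1.11). In the 361 regions of the stretches it was 1.08 (1.03 to 1.13), and 309 (85.6%, 81.5 to 89.1) were above 1. In the remaining 359 regions it was 0.965 (0.871 to 1.06). The stretches were chosen for KD only peaks of this same KDut list, so that their ratio is not independent of the choice. Without the repeats the median ratio over 720 regions, those of the stretches included, was 1.04, so that the direction turned. The groups also differed in median CTut fold, at 6.38 in the 171-bp repeat and 3.40 in the stretches. Outside repeats the ratio was 1.10 at CTut folds under 3.5 and 1.01 at 3.5 to 4. It was 0.939 there at 4 to 5, 0.869 at 5 to 7 and 0.886 at 7 or more. In repeats the ratios from 3.5 upwards were 0.924, 0.896, 0.816 and 0.760. A shared region had to reach the lowest fold of each list, 3.08 in CTut and 3.19 in KDut. Low ratios could therefore not occur at low CTut folds. Outside repeats the lowest ratio at CTut folds under 3.5 was 0.915. The fall of the ratio with CTut fold is thus in part fixed by the calling. Whether the ratio followed sequence or fold was not tested, and these bins cannot tell. The 2 lists were each called against their own input with no local background, so that folds were not scaled to the input at each region. No factor common to both lists was used here, and a ratio of 1 is not known to mark equal capture.

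Widths followed the same order. KDut peaks were longer in 37 of the 781 regions with the 171-bp repeat, with median lengths of 2103 bp in CTut and 1302 bp in KDut. They were longer in 290 of the 361 regions of the stretches (80.3%), where the medians were 4994 and 8572 bp. The widths there, too, are not independent of the choice of the stretches by KD only peaks of the same list. The largest shared region, of 228509 bp in the chromosome 13 stretch, joined 4 CTut and 2 KDut peaks, with mean folds of 4.32 and 5.16. In the 263 shared regions outside repeats with a canonical signature the ratio was 1.06 (0.961 to 1.11), and in the 457 without one it was 1.03 (0.944 to 1.11). The quartiles of these groups overlapped. Across the 1291 regions with 1 peak of each list, the log2 folds of the 2 lists had a Pearson correlation of 0.827, which describes regions of 2 libraries and not replicates.

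**Figure D4:**
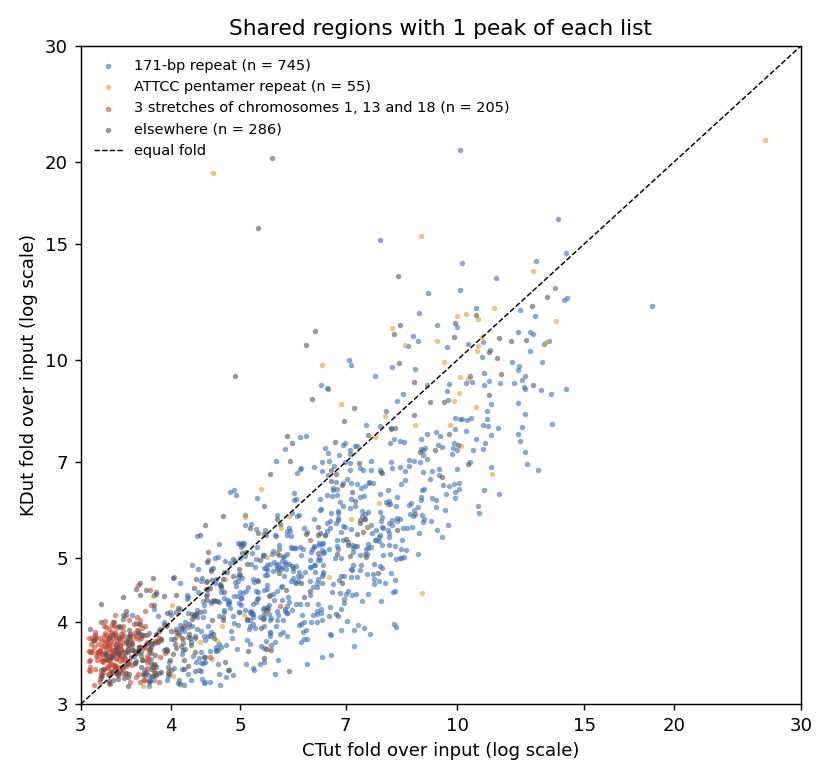
Fold over input in KDut (vertical) against CTut (horizontal), both on log scales, for the 1291 shared regions with 1 peak of each list, coloured by sequence group, with a dashed line at equal fold. Most 171-bp repeats lay below the line, and the regions of the 3 stretches clustered near the lowest folds and mostly above it.

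A few regions departed from this. The highest ratio was 4.20 in a pentamer repeat at chr1:125160121-125170604, where the fold was 4.57 over a CTut peak of 10484 bp and 19.2 over a KDut peak of 1813 bp. The highest CTtr and KDtr folds there were 18.4 and 20.1. The next was 3.67 in the mitochondrial pseudogene block at chr1:628741-635059 (MTND1P23, MTND2P28, MTCO1P12 and MTCO2P12), with folds of 5.53 and 20.3 over peaks of 5938 and 6319 bp. There CTtr had 12.5 and KDtr 19.7, and CTnuc had 22.3 and KDnuc 46.0. KD was higher in all 3 pairs at this block. The mitochondrial genome was not part of the alignment reference, and the share of its reads in this block was not tested. The third was 3.00 at chr18:106114-108593, with folds of 5.29 and 15.8 (CTtr 4.51, KDtr 8.91, CTnuc 22.8, KDnuc 27.2). The lowest ratios were 0.478 at chr4:50388416-50390324, 0.485 at chr22:14172950-14174559 and 0.494 at chr1:789043-791217. The first 2 were 171-bp repeats and the third a pentamer repeat.

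By overlap of at least 1 bp, the shared peaks were largely those that recurred in the series. CTtr peaks overlapped 83.2% (81.4 to 84.8) of the shared CTut and 82.2% of the shared KDut peaks, but 13.1% (11.4 to 14.8) of CT only and 13.7% (11.7 to 15.9) of KD only peaks. KDtr peaks overlapped 10.7% (9.23 to 12.3) of CT only and 11.7% (9.85 to 13.8) of KD only peaks. The intervals of these values overlap. Shared peaks were also longer. With at least 50% of the peak covered, CTtr overlapped 61.3% of shared CTut and 70.9% of shared KDut peaks. It then overlapped 7.74% of CT only and 8.59% of KD only peaks. For KDtr these shares were 47.6%, 58.3%, 5.96% and 6.95%. KDnuc, the largest of the AbC lists, overlapped 32.8% of CT only and 11.2% of KD only peaks, and CTnuc 20.4% and 3.84%. G4 DNA-IPdenat, from purified DNA that was heat-denatured, overlapped 36.8% (34.5 to 39.3) of CT only and 5.85% (4.53 to 7.41) of KD only peaks. Tandem repeats were 58.5% of CT only and 2.19% of KD only peaks, and the stretches held 13.0% and 79.9% of them. The overlap with G4 DNA-IPdenat is given here for whole classes and was not split by either. Without tandem repeats, KDnuc overlapped 29.5% of CT only and 10.7% of KD only peaks. G4 DNA-IPnat, from native purified DNA, overlapped 10.8% of the shared CTut peaks and 2 peaks each of the CT only and KD only classes. In all, 775 KD only peaks (70.8%, 68.0 to 73.5) and 610 CT only peaks (38.7%, 36.3 to 41.1) overlapped none of the other 7 lists, against 68 shared CTut peaks (3.54%) and 70 shared KDut peaks (3.82%).

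**Figure D5:**
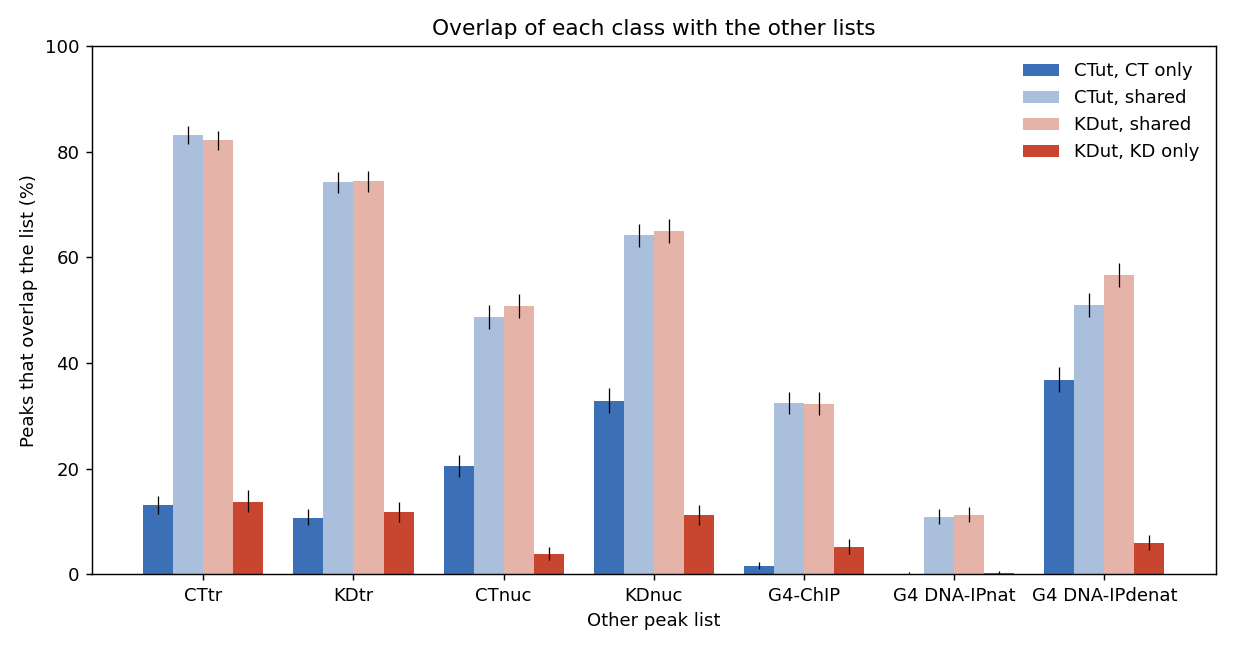
Share of each class of ut peaks, in percent, that overlapped each of the other 7 lists by at least 1 bp, with 95% exact intervals as error bars. Shared peaks recurred in CTtr and KDtr at 74.3% to 83.2%, while CT only and KD only peaks did so at 10.7% to 13.7%.

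The same split of the other pairs gave classes that were alike in some traits and not in others. The 3 stretches held 13.0% of CT only and 79.9% of KD only peaks in the ut pair, 42.5% (38.9 to 46.2) and 54.3% (50.3 to 58.2) in the tr pair, and 31.2% (28.4 to 34.1) and 32.4% (31.1 to 33.7) in the nuc pair, where the intervals overlap. The stretches were chosen for their KD only peaks of the ut pair. That choice raises the ut share, so it cannot be compared evenly with those of the other pairs. Repeats were a larger share of CT only than of KD only peaks in the tr pair (31.2% and 16.5%) and in the nuc pair (41.8% and 31.1%), as in the ut pair (58.5% and 2.19%), where the gap was widest. The median KD to CT ratio of fold for repeats with 1 peak of each list was 0.817 in the ut, 1.12 in the tr and 0.980 in the nuc pair, and outside repeats it was 1.02, 1.13 and 0.993. The quartiles of repeats and other regions overlapped in the tr (1.01 to 1.25 and 1.06 to 1.20) and nuc pairs (0.894 to 1.09 and 0.931 to 1.06), and met at their edges in the ut pair (0.710 to 0.934 and 0.934 to 1.11).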

How the data were processed

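The authors aligned MinION reads with minimap2 to hg38, from which chromosome Y, the mitochondrial genome and unplaced contigs were left out. Multiply aligned reads were dropped. The authors called broad peaks with MACS2 against each input (bandwidth 3000, no local background, broad cutoff 0.01). Tool versions and read depths were not given in the sources used here, so that peaks missed for want of depth could not be told from peaks that were absent. The labels give 2 dishes a sample and the methods 8 dishes pooled. The deposited values used were the fold, a ratio averaged by the authors' peak caller over each peak, and its −log10 q-value. The fold is called fold over input here, but without local background it was not taken against the input at each peak.

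From these lists, peaks were classed by overlap of at least 1 bp, and sequence was read from hg38 and genes from GENCODE v44 with Python 3.11.15, pandas 2.3.3 and pysam 0.24.0. Shared regions joined overlapping peaks, with folds weighted by length. Intervals are exact (Clopper-Pearson, 95%) and cover counting error only. With 1 library a side no test was run. Members, gene lists, the repeat limit and the stretches were chosen with earlier results of these data known. Named were, per class, the 3 peaks with the highest fold and the 3 longest, the 5 protein-coding genes with most peaks and up to 10 protein-coding promoters by fold, the 3 shared regions at each end of the ratio, and listed genes with a peak. Other names were added after their values were seen: genes with at least 3 KD only peaks, the leading peak of each stretch and the largest shared region. Some named items are not reported here. The measures were checked on 16 simulated cases.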

Additional observations from a re-analysis of the deposited data

Results flagged for a closer look

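The number of KDut peaks was 0.837 times the number of CTut peaks, whereas KDtr had 1.01 times the CTtr peaks and KDnuc 2.04 times the CTnuc peaks. KD had fewer peaks than CT in the ut pair, about as many in the tr pair and more in the nuc pair. In the chromosome 18 stretch the ratio was 6.84 in the ut pair, 0.860 in the tr pair and 78.7 in the nuc pair, where CTnuc had 3 peaks and KDnuc 236. That stretch was chosen for its KD only peaks of the ut pair, which raises the ut ratio. The pairs can therefore not be compared evenly there. With 1 library a side, neither difference was tested.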

How the results depend on the processing

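No paired analysis was possible because each group had 1 library, and for the same reason no replicate could be left out. The share of CTut peaks that were CT only (45.1%) became 55.8% with −log10 q of at least 4, 56.0% when 50% of the peak had to be covered and 65.6% when 70% had to be, 42.2% with lists of equal number, 52.1% without chromosome 13, 38.9% without tandem repeats and 51.6% without the 3 stretches. The share of KDut peaks that were KD only (37.4%) became, in the same settings, 13.2%, 45.5%, 50.9%, 41.7%, 25.8%, 55.2% and 13.8%. It was 40.7% when peaks closer than 3000 bp were joined and 47.5% without tandem repeats at a limit of 50%. The order of the 2 shares turned without tandem repeats, at either limit. The median ratio of fold (0.933) was 0.819 in tandem repeats and 1.04 without them, on the other side of 1. In the other settings tried it was 0.870 to 0.896.

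The share of tandem repeats in the CT only, shared CTut and shared KDut classes (58.5%, 45.6% and 49.1%) was 55.9%, 40.9% and 43.5% by the 171-bp match alone, 34.6%, 23.6% and 27.3% at a limit of 50%, and 67.3%, 67.9% and 65.7% without the stretches. For KD only peaks (2.19%) it was 1.10% at the limit of 50% and 10.9% without the stretches. Among 132 values by class under single settings, 61 stayed within the interval or quartiles of the reported value and 71 did not. The settings of 70%, the limit of 50%, the stretches and repeats alone were chosen after seeing the data.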
